A study of Homo sapiens with 12 samples.

Results

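Expression in 3 Jurkat libraries labelled Dox-induced ZNF683 was compared with that in 3 libraries labelled Mock. These are 6 of the 12 libraries of the series, chosen because they share a deposited table that holds no other library. Jurkat is an established line of human T cell acute lymphoblastic leukaemia. Both groups are the same cell line, grown in RPMI medium with fetal calf serum. The genotype label calls the ZNF683 libraries Dox-induced, and a treatment note shared by all libraries covers cells with and without doxycycline at 1 ug/uL. Whether the Mock libraries received it is not stated, so induction of ZNF683 and exposure to doxycycline cannot be told apart between the groups. The construct, its promoter, the number of clones and the time of induction are not given in the sources used here. Values are TPM, an abundance corrected for transcript length and set to a common total per library, and log2 changes are of TPM + 1, ZNF683 minus Mock, ± their standard error. Of 55514 genes in the table, 16588 averaged 1 TPM or more across the 6 libraries and were tested. Of these, 11661 were nuclear protein-coding genes, out of 19645 such genes in the table, and the account below follows them by function.

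Hobit, the product of ZNF683, is a relative of the zinc finger factor Blimp-1 and is known from tissue-resident and effector lymphocytes, where it acts largely as a repressor. Jurkat cells resemble an immature stage of T cell development. They carry a T cell receptor, the leukaemia factor TAL1 and enzymes that cut and join antigen receptor genes in the thymus.

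ZNF683 itself did not check the labels. Its level was 1.17, 1.76 and 1.04 TPM in the ZNF683 libraries and 0.715, 1.59 and 0.681 TPM in the Mock libraries. The second Mock library lay above the first and the third ZNF683 library, so the groups overlapped, and the exact two-sided permutation p was 0.5, where 3 against 3 libraries can reach 0.1 at the smallest. A construct that carries only part of the transcript, or a changed coding sequence, need not appear in these values, and whether one did was not tested. All directions below are therefore those of the libraries as labelled. T cell markers were present in all libraries (14 of 14 at 1 TPM or more, CD3D and CD3E among them), with a summed level of 7295 to 8114 TPM in ZNF683 and 6887 to 8499 TPM in Mock. The 6 markers of T leukaemia lines summed to 396 to 455 TPM in ZNF683 and 521 to 698 TPM in Mock, and this was the one marker class whose sums did not overlap. DNTT, the most abundant of them, weighs most in this sum, at 213, 208 and 197 TPM in ZNF683 and 425, 491 and 317 TPM in Mock. RAG1 and LMO1 were also lower in every ZNF683 library, TAL1 was higher in every one, and GATA3 and MYB overlapped. The sum therefore does not describe the class as a whole. Of the B cell markers, CD79A, PAX5 and EBF1 were above 1 TPM throughout, while MS4A1 and CD79B stayed under 1 TPM in every library. Myeloid, NK, erythroid and epithelial lists summed to at most 4.50 TPM in any library, and PECAM1 made up most of the fibroblast and endothelial sum of 89.1 to 112 TPM. Whether the numbered libraries of a group are separate cultures is not stated in the labels, and the p-values therefore rest on a spread that may be technical. Read depth is unknown, since TPM keeps no record of it.

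The libraries did not divide cleanly by label. Correlations of log2(TPM + 1) between any pair of libraries lay between 0.985 and 0.995. The third ZNF683 library correlated at 0.993 with the first Mock library and at 0.990 with the first ZNF683 library. The first ZNF683 library correlated equally, at 0.994, with the second ZNF683 library and with the third Mock library. On the first principal component of the protein-coding genes, which held 53.4% of the variance, the ZNF683 libraries scored 18.5, 20.01 and -0.547 and the Mock libraries -14.7, -24.4 and 1.02. Thus the third library of each group sat in the middle, with the third Mock library slightly on the ZNF683 side of the third ZNF683 library. The second component (18.8%) set the third ZNF683 library, at 14.7, farthest from the third Mock library, at -11.0.

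**Figure D1:**
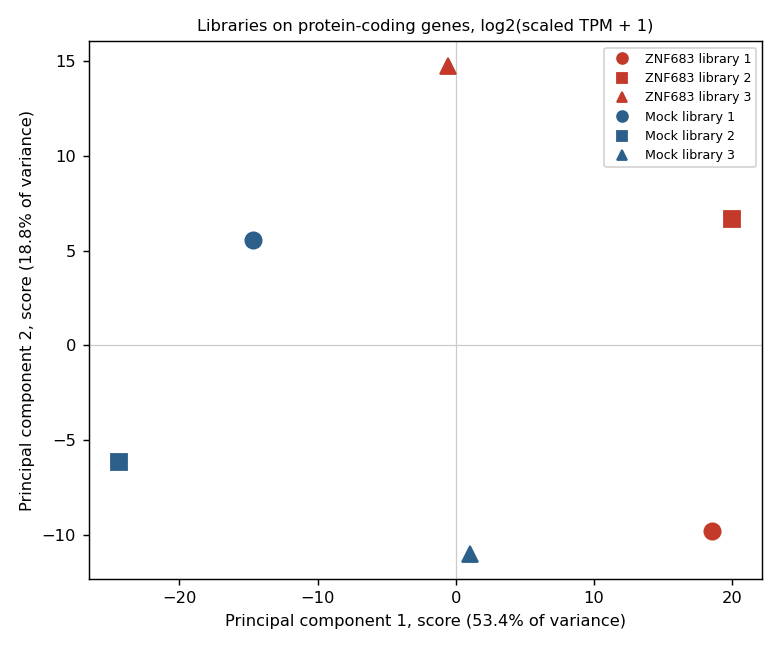
Scores of the 6 libraries on the first and second principal components of log2(scaled TPM + 1) over the protein-coding genes (axes in score units, red for ZNF683, blue for Mock, marker shape for the library number). The first 2 libraries of each group stand at opposite ends of the first component, between -24.4 and 20.01, and the third libraries lie near 0.

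One protein-coding gene passed the threshold. With limma and Benjamini-Hochberg adjustment, 5 of the 16588 genes tested (0.0301%) had an adjusted p under 0.05, and HSPA6, which fell, was the only protein-coding one (0.00858% of 11661 in either direction, and 0.00858% among falls). No protein-coding gene rose past the threshold (0 called, 0.0%). At an unadjusted limma p under 0.05 there were 922 higher (7.91%) and 401 lower (3.44%) protein-coding genes. The other 4 called genes are not annotated as protein-coding, and AL132655.6 among them has no known type. For each of the 4, 1 group had nothing but listed zeros. MIR128-1, a microRNA locus on chromosome 2, was listed at 0 in ZNF683 and at 1.94, 2.63 and 2.08 TPM in Mock. MIR6816, a microRNA locus on chromosome 22, was at 4.71, 2.64 and 4.36 TPM in ZNF683 and listed at 0 in Mock. The antisense RNA AC017083.2 was at 2.23, 2.59 and 1.94 TPM and AL132655.6, a symbol without a match in the annotation, at 6.67, 4.35 and 9.84 TPM in ZNF683, both listed at 0 in Mock. All 5 called genes passed the minimum mean of 1 TPM through the group where they are high (HSPA6 averaged 0.511 TPM in ZNF683 and 5.60 TPM in Mock), so their number is a description of this filter too. With no minimum, limma called 0 genes (3957 at an unadjusted p under 0.05), and HSPA6 had an adjusted p of 0.105, the highest of its alternatives, whose range began at 0.00383. A value of exactly 0 can be a failed estimate, and reads of a short RNA inside a longer transcript cannot be told apart from those of the transcript.

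Many protein-coding genes nonetheless had groups that did not overlap. All ZNF683 libraries lay above all Mock libraries in 1072 genes (9.19%), and below them in 411 (3.52%), both as deposited and after median-of-ratios scaling, which sets the libraries to a common typical gene. Together these are 1483 genes, or 12.7%. On the deposited scale alone the shares were 10.7% higher and 5.23% lower, and with median-of-ratios scaling alone 14.5% higher and 4.1% lower, so the scaling moves the balance of the directions. The log2 change was positive for 64.8% of protein-coding genes as deposited and for 72.2% with the scaling, with a median of 0.08 and 0.12. Over all 16588 genes tested the median was 0.03 and 0.07. The scaling factors came from 35565 genes, many of them not tested, so the positive shares depend on the genes taken as reference. Sizes were small. A log2 change of 0.5 or more with separated groups was seen in 152 genes (1.3%) and one of -0.5 or less in 98 (0.84%). A change of 1 or more was seen in 2 (0.0172%), MLEC and MARCKSL1, and one of -1 or less in 4 (0.0343%), HSPA6, RAG1, SPINK2 and EGR1.

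HSPA6, which encodes a strictly stress-inducible member of the HSP70 chaperone family, fell: its Mock mean was 10.96 times its ZNF683 mean. It lies on chromosome 1 (ENSG00000173110.7, 161524540 to 161526910, plus strand of GRCh38) as a gene of 2371 nucleotides. Its level was 0.515, 0.399 and 0.618 TPM in the ZNF683 libraries and 6.85, 5.88 and 4.06 TPM in the Mock libraries. The lowest Mock library was thus 6.58 times the highest ZNF683 library. The means were 0.511 ± 0.109 and 5.60 ± 1.41 TPM (SD, n = 3 libraries each), a ZNF683 to Mock ratio of 0.0912. The log2 change was -2.11 ± 0.18 with a limma adjusted p of 0.0105, and -2.07 with an adjusted p of 0.0135 after median-of-ratios scaling. On a pseudocount of 0.1 in place of 1 the log2 change was -3.21. The call was lost without the second ZNF683 library (limma adjusted p 0.0947), without the first Mock library (0.0597), without the second Mock library (0.0790), with the replicate number as a block (0.0716) and with no minimum TPM (0.105), while the log2 change stayed between -2.29 and -1.97 whichever library was left out. Over 13 alternatives the adjusted p ran from 0.00383 to 0.105.

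The bases before the transcript start of HSPA6 and of its relative HSPA1B are shown because heat shock factors, the transcription factors behind the heat shock response, bind inverted repeats of the block nGAAn. The sequences run 5′ to 3′, from 250 bases before to 50 bases after the start, and come from RefSeq on GRCh38.p14. Capitals mark each GAANNTTC, a head-to-head pair of such blocks that is its own reverse complement.
HSPA6 (chr1:161524290-161524589, plus strand): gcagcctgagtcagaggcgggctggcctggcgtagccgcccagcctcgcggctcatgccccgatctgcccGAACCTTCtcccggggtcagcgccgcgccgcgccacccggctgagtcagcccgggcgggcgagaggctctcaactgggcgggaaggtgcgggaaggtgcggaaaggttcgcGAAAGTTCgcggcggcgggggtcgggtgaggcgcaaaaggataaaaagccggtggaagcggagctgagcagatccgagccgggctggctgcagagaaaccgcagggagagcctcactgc
HSPA1B (chr6:31827488-31827787, plus strand): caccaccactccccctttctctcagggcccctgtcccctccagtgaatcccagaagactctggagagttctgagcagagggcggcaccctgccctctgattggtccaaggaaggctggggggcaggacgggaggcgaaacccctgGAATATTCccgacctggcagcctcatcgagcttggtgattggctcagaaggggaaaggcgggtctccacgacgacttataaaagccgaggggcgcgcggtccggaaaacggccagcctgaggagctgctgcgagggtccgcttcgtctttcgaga
HSPA6 has 2 such matches, GAACCTTC and GAAAGTTC, and HSPA1B has 1, GAATATTC. Of the protein-coding genes tested, 9420 had a promoter of this length in the RefSeq table, and 617 of these (6.55%) held at least 1 match. In a list of HSF1-linked heat shock and HSP70 genes 10 of 23 held one, among them HSPA8, HSP90AA1 and HSP90AB1. HSF1 is a heat shock factor, so this share follows in part from how the list was chosen. Among the 15 genes with the lowest log2 changes described below, HSPA6 was the only match of 12. The share was 6.79% for genes with ZNF683 higher in every library and 7.94% for those with ZNF683 lower. A match describes the letters and is not a measured binding site.

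Most genes of the heat shock list had positive log2 changes, as did most protein-coding genes, and HSPA1B was lower in every ZNF683 library, like HSPA6. Of 26 tested, 18 had a positive log2 change as deposited and 21 with median-of-ratios scaling, near the 64.8% and 72.2% over all protein-coding genes. None had all ZNF683 libraries above all Mock libraries (9.19% over all protein-coding genes). In 2, HSPA6 and HSPA1B, they lay below (3.52% over all protein-coding genes). The list's median log2 change was 0.18, or 0.23 with median-of-ratios scaling. HSPA1B, a major inducible HSP70, was at 3.68, 3.63 and 2.75 TPM in ZNF683 and 5.90, 5.22 and 4.57 TPM in Mock. Its groups were apart by less than 1 TPM, with a log2 change of -0.52 ± 0.14 and a limma adjusted p of 0.283. The near-identical HSPA1A was under 1 TPM in all libraries (0.252, 0.182 and 0.154 TPM against 0.638, 0.534 and 0.371 TPM) and was not tested, and the split of reads between both copies is uncertain. HSPA7, a close copy next to HSPA6, was at 0.0131 and 0.0266 TPM in ZNF683 libraries 2 and 3, listed at 0 in library 1, and at 0.0859, 0.106 and 0.0424 TPM in Mock. HSPA1A and HSPA7 were thus lower in every ZNF683 library, at levels too low to test here. As close copies, they may share reads with HSPA1B and HSPA6, so they are not counted as further falls. The abundant constitutive chaperone HSPA8 was at 702, 584 and 450 TPM in ZNF683 and 392, 446 and 653 TPM in Mock. It was highest in the first ZNF683 and the third Mock library, and the same libraries were highest for HSPA5, the HSP70 of the endoplasmic reticulum (592, 538 and 370 TPM against 265, 272 and 502 TPM). HSP90AB1, the main constitutive cytosolic HSP90, was highest in the same libraries, at 1188, 933 and 834 TPM against 766, 740 and 1121 TPM. BAG3, a co-chaperone of HSP70, was at 16.2, 26.1 and 25.0 TPM in ZNF683 and 17.5, 15.1 and 14.9 TPM in Mock, with overlapping groups.

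Next to HSPA6 the lowest log2 changes included enzymes of antigen receptor assembly. RAG1, a subunit of the recombinase that cuts receptor genes, was at 1.54, 1.94 and 1.63 TPM in ZNF683 and 3.50, 7.996 and 5.18 TPM in Mock. The groups did not overlap, and most of the spread lay within Mock. Its log2 change was -1.22 ± 0.24, with a limma adjusted p of 0.225. DNTT, the terminal transferase that adds bases at receptor gene joints, was far more abundant, at 213, 208 and 197 TPM in ZNF683 and 425, 491 and 317 TPM in Mock. The ZNF683 libraries spanned 15.9 TPM, at a ratio of 0.502 to the Mock mean, and the log2 change was -0.97 ± 0.16 (limma adjusted p 0.222). Without the third Mock library, the lowest of Mock, DNTT passed the threshold, with a log2 change of -1.15 and a limma adjusted p of 0.0376 (0.222 with all libraries, and 0.0376 to 0.584 over 14 alternatives). RAG2, the partner of RAG1, had overlapping groups (24.4, 22.4 and 21.3 TPM against 20.6, 23.2 and 27.1 TPM). PTCRA, the pre-T cell receptor alpha chain, was lower in every ZNF683 library, at 5.44, 6.14 and 6.59 TPM against 7.54, 10.0 and 8.27 TPM (log2 change -0.44 ± 0.13, limma adjusted p 0.308). LMO1, a partner of TAL1 in leukaemia, was likewise at 7.69, 10.1 and 7.37 TPM against 12.8, 16.0 and 11.3 TPM. TAL1 itself was higher in every ZNF683 library, at 57.6, 67.3 and 53.3 TPM against 39.1, 46.4 and 50.1 TPM (log2 change 0.39 ± 0.13, limma adjusted p 0.335). The thymocyte gene CD1A and the T cell factors GATA3 and MYB had overlapping groups. RAG2, PTCRA, LMO1, TAL1, CD1A, GATA3 and MYB were picked for their role, not by the rule for named genes.

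The 15 lowest changes were taken among genes with groups apart on both scales and an unadjusted limma p under 0.05. Their higher group averaged 5 TPM or more. Of these 15, 14 missed the threshold, with limma adjusted p from 0.115 to 0.325. The smallest of these belonged to LYSMD3, a membrane protein with a LysM domain, at 14.8, 14.4 and 14.5 TPM in ZNF683 and 26.6, 28.2 and 23.1 TPM in Mock. Its ZNF683 libraries were nearly equal, and the log2 change was -0.79 ± 0.11. PLAAT4, a phospholipid acyltransferase that retinoids and interferons induce, was at 7.99, 9.13 and 9.01 TPM in ZNF683 and 20.4, 16.3 and 15.1 TPM in Mock, a clear gap with a log2 change of -0.90 ± 0.13 (limma adjusted p 0.145). SPINK2, a serine protease inhibitor, was at 33.7, 29.3 and 54.8 TPM against 124, 83.4 and 58.9 TPM. Here the third libraries of both groups nearly met. EGR1, an immediate early transcription factor, was at 1.80, 3.72 and 3.81 TPM against 11.8, 7.79 and 4.68 TPM, and its groups also nearly met at the third libraries. The myeloid factor CEBPE was at 7.43, 11.6 and 8.56 TPM against 20.2, 18.3 and 12.6 TPM. Others of the 15 were AL034430.1, PLA2G2C, SMIM27, CALML4, C1orf56 and the ribosomal protein gene RPS29, with log2 changes from -0.86 to -0.76. In 10 of the 15 the third Mock library was the lowest of Mock, and the share of all genes with this order was not counted.

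**Figure D2:**
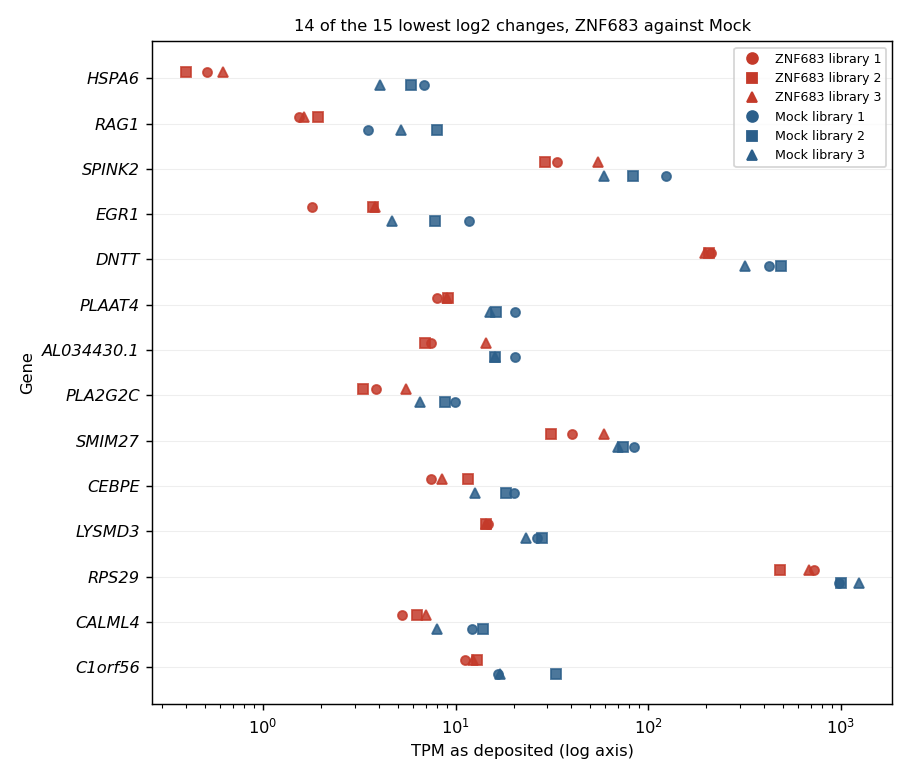
TPM in each library (log axis) for 14 of the 15 protein-coding genes with the lowest log2 changes among those with groups apart on both scales, red for ZNF683 and blue for Mock, 1 point per library. HSPA6 shows the widest gap, from 0.618 TPM as the highest ZNF683 value to 4.06 TPM as the lowest Mock value.

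Other genes stood out by a small standard error beside their log2 change rather than by size. CNOT1, the scaffold of the CCR4-NOT complex that shortens mRNA tails, was at 68.8, 68.5 and 68.7 TPM in ZNF683 and 98.5, 99.6 and 97.5 TPM in Mock. The groups were 28.7 TPM apart at their nearest, against a range of 2.12 TPM within Mock, and the log2 change was -0.52 ± 0.09 (limma adjusted p 0.222). PJA2, a ubiquitin ligase, was at 19.7, 17.5 and 17.3 TPM against 29.4, 33.5 and 27.3 TPM (log2 change -0.70 ± 0.11). On the high side KCNK1, a two-pore potassium channel, was at 13.2, 14.8 and 14.6 TPM in ZNF683 and 8.48, 9.06 and 8.41 TPM in Mock. Its log2 change was 0.65 ± 0.10, with a limma adjusted p of 0.185. PJA2 was chosen after its values were seen. CNOT1 leads the list of mRNA decay genes below, and KCNK1 leads a list of voltage-gated and two-pore channels. None of the 3 passed the threshold.

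By the same rule as for the lowest, the 15 highest log2 changes came from genes with groups apart on both scales. Genes with overlapping groups were left out, such as HES4 below, with a log2 change of 1.04. None of the 15 passed the threshold, with limma adjusted p from 0.222 to 0.302 and ratios of means from 1.77 to 2.49. MLEC, a lectin of the endoplasmic reticulum that binds glucosylated N-glycans, was at 60.0, 157 and 129 TPM in ZNF683 and 52.9, 32.4 and 53.6 TPM in Mock. The first ZNF683 library was only 6.45 TPM above the highest Mock library, and the log2 change was 1.22 ± 0.35. MARCKSL1, an actin-binding membrane protein, was at 326, 718 and 583 TPM against 246, 199 and 282 TPM (log2 change 1.10 ± 0.28), again with the first ZNF683 library nearest to Mock. SLC7A5, the light chain of the LAT1 transporter of large neutral amino acids, was at 100, 144 and 112 TPM against 63.5, 47.3 and 90.4 TPM. PRF1, which encodes the pore-forming protein of cytotoxic granules, was at 9.17, 13.8 and 12.1 TPM against 5.43, 5.71 and 6.82 TPM. PRF1 had the smallest adjusted p of the 15, with a log2 change of 0.85 ± 0.16. STK17A, an apoptosis-linked kinase, was at 30.9, 48.6 and 42.0 TPM against 20.02, 17.8 and 24.4 TPM, with a log2 change of 0.92 ± 0.18. ITGA1, the collagen-binding integrin alpha 1 chain and a marker of tissue-resident T cells, was at 9.28, 6.06 and 10.4 TPM against 5.22, 2.98 and 4.19 TPM. It differed from the others in that the second ZNF683 library was its lowest. PELO, described below, lies within the span of ITGA1 on the same strand and has the same lowest ZNF683 library. SPEN, a repressor of Notch target genes, was at 9.23, 14.02 and 15.5 TPM against 6.73, 4.66 and 7.97 TPM. The remaining 8 were MAPKAP1, a subunit of the mTORC2 complex, the pantothenate kinase PANK2, the choline kinase CHKA, the kinase PRKX, the ubiquitin-linked proteins RNF187 and TRIM44, CMTM3 and C17orf97, with log2 changes from 0.86 to 0.99.

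The order of the libraries was much the same in these 15 genes. The second ZNF683 library was the highest of ZNF683 in 13 and the first was the lowest in 14. Among Mock, the third library was the highest in 14 and the second the lowest in 12. The share of all genes with these orders was not counted. Over all protein-coding genes the scaled medians relative to the Mock mean also differed between libraries. They were 0.14, 0.18 and 0.03 in ZNF683 and 0.03, -0.08 and 0.04 in Mock. A second motif, AGNGAAAG, was searched on both strands as a stretch of the site that Blimp-1 binds. Of 12 of the 15 with a promoter in the table, 4 held it (CMTM3, MAPKAP1, PANK2 and TRIM44), and 2 of 12 of the 15 lowest (CEBPE and PLA2G2C), beside 9.59% of all 9420 promoters. Among all genes with separated groups the share was 9.62% for the higher and 10.8% for the lower, near that of all promoters. The matches describe letters only.

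**Figure D3:**
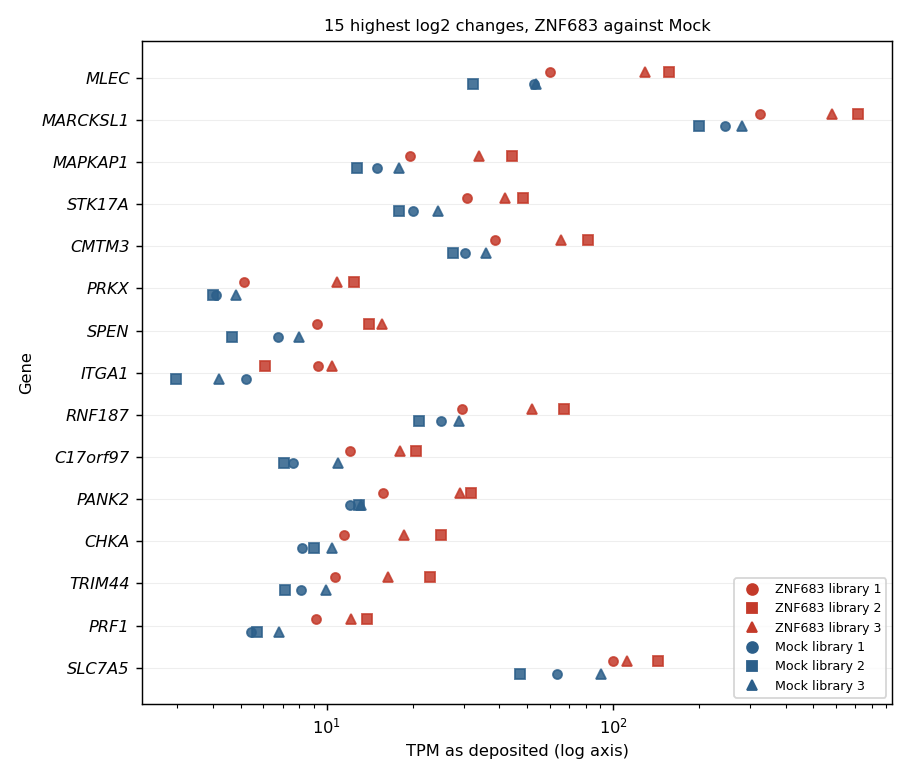
TPM in each library (log axis) for the 15 protein-coding genes with the highest log2 changes among those with groups apart on both scales, red for ZNF683 and blue for Mock, 1 point per library. In 14 of the 15 the circle of the first ZNF683 library is the ZNF683 point nearest to Mock, as for MLEC at 60.0 TPM against 53.6 TPM.

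Leaving out the first ZNF683 library raised the number of protein-coding genes past the limma threshold from 1 to 36, of which 35 were higher. This fit has 2 libraries against 3, and these 35 genes were looked at after their values were seen. It picks genes that are high in ZNF683 libraries 2 and 3. Their place above Mock, and the lower first ZNF683 library, therefore follow largely from the choice of genes and are given as description only. All 35 had ZNF683 libraries 2 and 3 above every Mock library, and in 24 the first ZNF683 library was at or below the highest Mock library. The mean of ZNF683 libraries 2 and 3 was 1.54 to 4.45 times the first, with a median of 2.28. HES4, a transcription factor of the Notch-responsive HES family, was at 10.7, 43.1 and 52.0 TPM in ZNF683 and 15.4, 13.1 and 12.7 TPM in Mock. Its first ZNF683 library lay below all Mock libraries, and its log2 change without that library was 1.72. The related HES6 was at 6.50, 16.9 and 16.9 TPM against 7.61, 6.75 and 7.10 TPM. IGFBP2, a secreted binding protein of insulin-like growth factors, was at 44.3, 206 and 152 TPM against 69.6, 55.0 and 44.2 TPM. SOCS1, an inhibitor of cytokine receptor signalling, was at 2.24, 10.2 and 7.95 TPM against 3.27, 2.88 and 2.82 TPM. CENPA, the histone variant of centromeres, was at 15.4, 43.6 and 39.6 TPM against 17.9, 18.0 and 19.8 TPM. YWHAH, a 14-3-3 adaptor protein, was at 32.4, 92.2 and 77.1 TPM against 27.1, 30.3 and 33.0 TPM. As for HES4, the first ZNF683 library lay below all Mock libraries for HES6, SOCS1 and CENPA, and it lay within the Mock range for IGFBP2 and YWHAH. MARCKSL1, MAPKAP1, CMTM3, PRKX and PANK2 were among the 35 as well. With all 6 libraries their limma adjusted p ran from 0.272 to 0.426, against 0.0273 to 0.0463 without the first ZNF683 library, and 11 of the 35 had groups apart. The longest transcripts of the 35 had a median GC content of 56.5%, against 48.1% over all protein-coding genes tested, and whether base composition bears on the difference was not tested.

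The widest separated differences in TPM lay in abundant genes. MARCKSL1, described above, was among the 6 widest on the high side. ARHGDIB, an inhibitor of small GTPases that blood cells make at high levels, was at 3377, 4054 and 3452 TPM in ZNF683 and 3052, 3064 and 2885 TPM in Mock. HMGN2, a nucleosome-binding protein, was at 3342, 3821 and 3190 TPM against 2725, 2893 and 3036 TPM. The log2 changes of both were under 0.3. YBX1, an RNA-binding and cold shock domain protein, was at 917, 1613 and 1382 TPM against 740, 597 and 882 TPM, a log2 change of 0.80 ± 0.23 (limma adjusted p 0.291). LEF1, a partner of beta-catenin in T cells, was at 700, 1010 and 854 TPM against 575, 681 and 616 TPM. RAN, the GTPase of nuclear transport, was at 1728, 1812 and 1721 TPM against 1524, 1463 and 1680 TPM. On the low side 5 of the 6 widest were ribosomal protein genes. RPS27 was at 1783, 1304 and 2207 TPM against 2897, 2472 and 2893 TPM, a log2 change of -0.67 ± 0.20 (limma adjusted p 0.298). RPS29 was at 729, 484 and 684 TPM against 985, 1002 and 1241 TPM. TPT1, a translation-linked tumour protein whose mRNA is controlled like those of ribosomal proteins, was at 554, 582 and 636 TPM against 772, 1086 and 739 TPM. RPL5, RPS21 and RPL37 completed the set.

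To describe functions, 38 curated lists and 44 families of shared symbols were counted, holding 3333 of the tested genes. HSPA6 was the only member of any list past the limma threshold. The median log2 change was positive in 73 of the 82 as deposited and in 76 with median-of-ratios scaling, as it was over all protein-coding genes. In 17 lists the library medians of all ZNF683 libraries lay above those of all Mock libraries, and in 0 below. Counts below are of genes with groups apart on both scales, to be read beside the 9.19% higher and 3.52% lower over all protein-coding genes, and values of the genes named did not pass the threshold.

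Translation genes split by class. Of 79 cytosolic ribosomal protein genes, which form the mature ribosome, 78 had a negative log2 change as deposited and 77 with median-of-ratios scaling, with a median of -0.41 and -0.36. All 47 of the large subunit were negative, and of 32 of the small subunit RPS2 alone was positive (log2 change 0.13, groups overlapping). Yet 6 had groups apart, all lower, and none passed the threshold. The median after scaling was -0.42 and -0.69 relative to the Mock mean in the first and second ZNF683 libraries and 0.03 in the third, and 0.27, -0.15 and -0.14 in the Mock libraries, so the third ZNF683 library lay above 2 of the Mock libraries. Leaving out a library moved the deposited median between -0.64 (without the third ZNF683 library) and -0.24. Many of these genes have processed pseudogenes, so the share of reads each gets is uncertain. RPS12 was at 364, 268 and 471 TPM in ZNF683 and 601, 598 and 534 TPM in Mock. The 78 mitochondrial ribosomal protein genes had a median of 0.05, with 4 higher and 0 lower. Of 42 initiation factor genes 4 were higher and 0 lower. EIF2B5, the catalytic subunit of the exchange factor for eIF2, was at 64.4, 84.4 and 75.0 TPM against 50.5, 45.7 and 59.9 TPM. PELO, which rescues stalled ribosomes, was at 31.7, 27.8 and 28.3 TPM against 19.3, 16.0 and 20.6 TPM, a log2 change of 0.63 ± 0.12 (limma adjusted p 0.225). Since PELO lies within the span of ITGA1 on the same strand, the split of reads between both genes is uncertain. Their differences may not be separate. The elongation factor EEF2 went the other way, at 440, 430 and 417 TPM against 500, 571 and 496 TPM. Of 39 aminoacyl-tRNA synthetase genes 35 were positive, but only AIMP2 had groups apart.

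Among RNA genes, the family of hnRNP and SR proteins, which package pre-mRNA and guide splicing, had the highest median of the lists with 30 or more genes, 0.27 (0.32 scaled). Of 33, 30 were positive, 8 were higher and 2 lower. HNRNPAB was at 45.3, 77.1 and 70.9 TPM in ZNF683 and 32.0, 33.5 and 44.8 TPM in Mock, while HNRNPH1 was at 413, 374 and 452 TPM against 496, 708 and 568 TPM. The direction thus differed between members of the family. In the spliceosome core 1 of 45 was higher and 1 lower. The lower one was PRPF8, the protein at the catalytic centre, at 83.7, 78.6 and 80.3 TPM against 109, 106 and 101 TPM (log2 change -0.38 ± 0.09, limma adjusted p 0.279). In mRNA decay 1 of 41 was higher and 5 were lower, CNOT1 and the nonsense-mediated decay kinase SMG1 among the latter. SMG1 was at 18.1, 16.2 and 15.6 TPM against 19.7, 21.4 and 21.6 TPM. No nuclear pore gene of 29 had groups apart.

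Transcription and chromatin genes differed in both directions. Of 394 genes named ZNF for their zinc fingers, 69 were higher (17.5%) and 8 lower, with a median log2 change of 0.09, close to the 0.08 over all protein-coding genes. The count was 31 of 190 on chromosome 19, where these genes form clusters, and 38 of 204 elsewhere. The highest of them was ZNF263, at 16.4, 25.9 and 21.6 TPM against 12.1, 10.1 and 15.2 TPM, a log2 change of 0.72. ZNF385D was lower, at 1.26, 1.10 and 0.904 TPM against 2.17, 2.46 and 2.003 TPM. Chromatin remodellers had 5 higher and 5 lower of 36. SMARCC1, a core subunit of SWI/SNF, was at 44.0, 55.8 and 50.3 TPM in ZNF683 and 29.998, 26.5 and 38.5 TPM in Mock, and ARID1B, the DNA-binding subunit of the same complex, was at 25.6, 24.6 and 29.4 TPM against 37.9, 43.7 and 34.4 TPM. These subunits of 1 complex therefore differed in opposite directions. In Mediator and general transcription factors 6 of 55 were higher and 5 lower. MED4 was at 180, 190 and 172 TPM against 149, 147 and 154 TPM, and MED13, of the kinase module, at 7.53, 6.36 and 6.05 TPM against 8.19, 11.4 and 9.15 TPM. HOXA7 was at 31.5, 33.8 and 33.8 TPM against 26.3, 25.0 and 26.04 TPM, with tight groups and a log2 change of 0.35 ± 0.09.

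**Figure D4:**
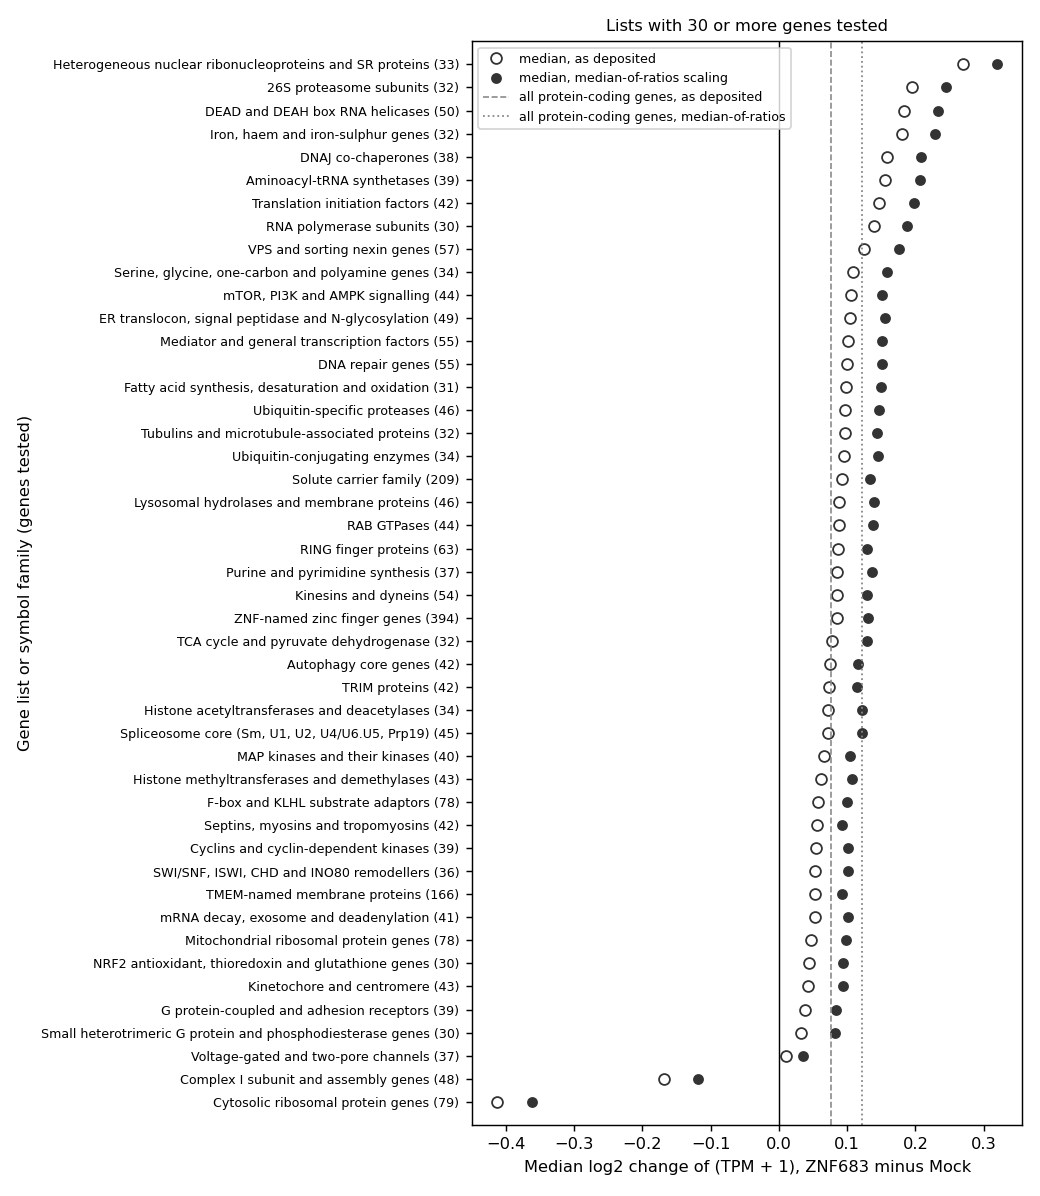
Median log2 change of 46 gene lists and families with at least 30 genes tested (number in brackets), as deposited (open circles) and with median-of-ratios scaling (filled circles), against the medians over all protein-coding genes of 0.08 (dashed line) and 0.12 (dotted line). All but the lists of complex I and cytosolic ribosomal proteins, at -0.17 and -0.41, have positive medians.

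For protein turnover, 10 of 34 ubiquitin-conjugating enzymes (29.4%) were higher and 0 lower. UBE2E2 was at 163, 183 and 142 TPM in ZNF683 and 115, 126 and 131 TPM in Mock, and UBE2N, which builds lysine-63 chains, was at 308, 324 and 266 TPM against 218, 219 and 258 TPM. Of 32 proteasome subunits 29 were positive (median 0.19) but 3 were higher, PSMC5 among them. RING finger genes had 8 higher and 2 lower of 63. RNF166 was at 28.2, 38.8 and 33.4 TPM against 17.2, 19.04 and 22.8 TPM (log2 change 0.74 ± 0.15, limma adjusted p 0.231). The DNAJ co-chaperones, partners of HSP70, had 7 higher and 0 lower of 38. DNAJB11, the DNAJ protein of the endoplasmic reticulum, was at 110, 113 and 89.7 TPM against 73.9, 77.4 and 87.5 TPM. In the secretory lists VPS26B, a retromer subunit, was at 30.9, 67.9 and 55.4 TPM against 27.9, 26.7 and 28.2 TPM, again with the first ZNF683 library near Mock. Of 19 subunits of the proton pump of lysosomes 4 were higher, and of 28 COPI and COPII coat genes 2 were lower.

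In metabolism, complex I, the entry point of the respiratory chain, was the other large list with a negative median, -0.17 (-0.12 scaled), with 31 of 48 negative, 3 higher and 1 lower. NDUFB1, the lower one, was at 184, 130 and 198 TPM in ZNF683 and 241, 241 and 297 TPM in Mock. The median of complex I ran from -0.36 (without the third ZNF683 library) to -0.05 when a library was left out. Of 22 amino acid transporters 20 were positive and 2, SLC7A5 and SLC36A1, were higher. ODC1, the first enzyme of polyamine synthesis, was at 29.6, 44.0 and 33.8 TPM against 16.8, 19.2 and 28.9 TPM, and DHODH, of pyrimidine synthesis, at 30.4, 33.3 and 28.5 TPM against 22.7, 23.5 and 25.1 TPM. Both were apart, the first by less than 1 TPM. RRM2B, the p53-induced ribonucleotide reductase subunit, was lower, at 8.03, 6.90 and 6.34 TPM against 9.77, 9.66 and 12.5 TPM. SLC25A27, a mitochondrial carrier, was at 1.41, 2.22 and 1.71 TPM against 2.90, 5.50 and 4.60 TPM (log2 change -0.92 ± 0.21, limma adjusted p 0.271). In cholesterol synthesis 2 of 27 were higher and 1, the sterol carrier STARD4, lower.

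Signalling lists varied in their balance. Interleukins and their receptors had 3 higher and 3 lower of 21 genes, and chemokines and their receptors 2 and 2 of 9. DUSP1, a phosphatase that switches off MAP kinases, was at 35.5, 40.3 and 36.9 TPM in ZNF683 and 25.7, 25.3 and 27.4 TPM in Mock, a log2 change of 0.51 ± 0.10 (limma adjusted p 0.225). It led 5 higher and 0 lower of 18 feedback genes of the ERK pathway. MAP2K1, the kinase of ERK, was at 16.8, 33.7 and 28.0 TPM against 13.9, 16.1 and 16.4 TPM, with the first ZNF683 library close to Mock. Of 44 genes of mTOR, PI3K and AMPK signalling 8 were higher and 2 lower. PIK3R1, the regulatory subunit of PI3K, was at 66.5, 68.7 and 60.3 TPM against 38.0, 33.4 and 58.3 TPM, and RICTOR, of mTORC2, at 6.24, 6.75 and 7.08 TPM against 8.43, 11.1 and 8.27 TPM. PTPRC, which encodes the leukocyte phosphatase CD45, was at 323, 315 and 279 TPM against 223, 202 and 262 TPM. IL2RB, the beta chain of the IL-2 and IL-15 receptors, was at 1.76, 1.69 and 2.05 TPM against 0.550, 0.703 and 1.23 TPM. Its level was low in both groups, as was that of CCL5, a chemokine of cytotoxic T cells, at 1.20, 1.02 and 1.26 TPM against 1.68, 1.86 and 1.87 TPM. CCR7, a homing receptor for lymph nodes, was at 5.22, 5.58 and 4.31 TPM against 3.10, 3.63 and 3.74 TPM.

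Among survival, cycle and cytoskeleton genes, single members had groups apart. Some gaps were narrow, as for ERCC3, and others wide. MCL1, an anti-apoptotic BCL2 protein, was at 36.9, 40.6 and 36.9 TPM in ZNF683 and 24.8, 23.6 and 30.2 TPM in Mock, and of 24 apoptosis genes 5 were higher and 0 lower. Of 55 DNA repair genes 6 were higher and 0 lower. ERCC3, a helicase of excision repair and of TFIIH, was at 90.2, 83.0 and 73.3 TPM against 57.4, 55.4 and 70.5 TPM. ATM, the kinase that responds to DNA double-strand breaks, had the smallest p of the list and a log2 change the other way, -0.77 ± 0.22 (limma adjusted p 0.288). It was at 12.4, 13.2 and 19.4 TPM against 29.7, 29.999 and 19.2 TPM, and its groups overlapped only through the third libraries. CCNE1, the cyclin of S phase entry, was at 8.96, 12.7 and 9.83 TPM against 6.57, 6.76 and 7.45 TPM. The kinetochore genes KNTC1 and SPC24 were lower, KNTC1 at 38.6, 40.4 and 39.9 TPM against 52.7, 82.8 and 61.1 TPM and SPC24 at 78.5, 82.9 and 85.1 TPM against 117, 173 and 106 TPM. They were the 2 lower ones of 43 kinetochore genes, with 1 higher. SEPTIN11, a filament-forming GTPase, was at 50.4, 55.4 and 48.9 TPM against 33.3, 28.8 and 36.7 TPM (limma adjusted p 0.222, log2 change 0.63 ± 0.12). The tubulin TUBA4A was at 12.5, 11.2 and 12.2 TPM against 7.54, 6.58 and 7.91 TPM. ANXA1, the calcium-dependent membrane binder annexin A1, was at 330, 317 and 329 TPM against 227, 221 and 252 TPM (log2 change 0.48 ± 0.10). The gaps of these 3 exceeded the range within either group. Among membrane genes TSPAN17, a tetraspanin, was at 23.01, 30.1 and 21.3 TPM against 14.1, 12.97 and 18.4 TPM.

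The separated genes were not spread evenly over transcript length and level. Genes with ZNF683 lower in all libraries made up 2.40% of the shortest of 5 equal classes of transcript length and 6.64% of the longest, of 5868 nucleotides or more. Their median longest transcript was 4754 nucleotides, against 3630 over all protein-coding genes tested, with CNOT1, PRPF8 and ARID1B as examples. Genes with ZNF683 higher took between 7.41% and 10.6% of each of the 5 length classes. By level, the lower genes took 7.38% of the class with the lowest mean TPM and 1.11% of the class with the highest, again of 5. The filter at a mean of 1 TPM bounds the lowest class, and the part that length and level play in the differences was not tested. Across chromosomes the scaled median log2 change lay between 0.08 on chromosome 19 and 0.16 on chromosome 20, so no chromosome stood far from the median of all genes.

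**Figure D5:**
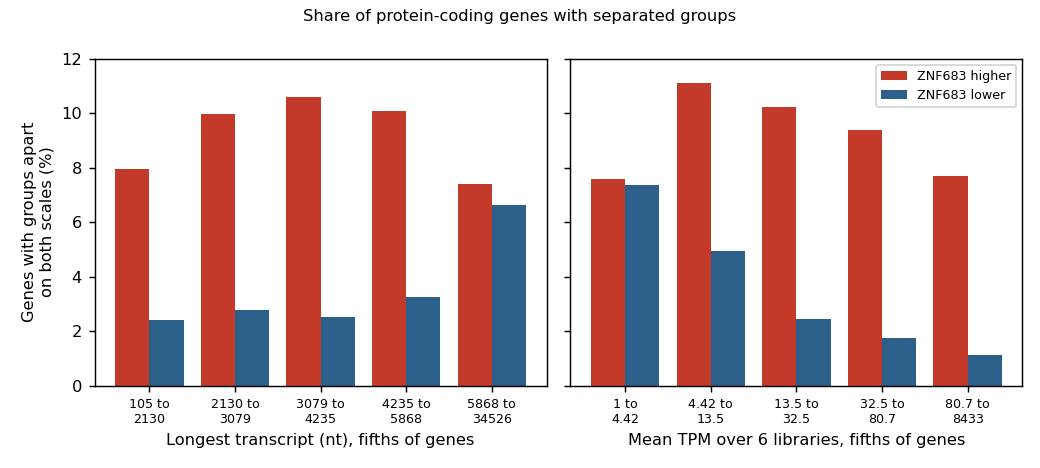
Share of protein-coding genes (percent of each of 5 equal classes) whose groups did not overlap on both scales, by longest transcript (left, nucleotides) and by mean TPM (right), red for ZNF683 higher and blue for ZNF683 lower. The blue bars go from 2.40% to 6.64% with length and from 7.38% to 1.11% with level.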

How the data were processed

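Per the labels' protocols, total RNA came from a Qiagen RNeasy extraction and went into NEBNext low-input libraries. The authors deposited TPM values per gene symbol in 1 table for these 6 libraries. Tools that the authors named in the submitters' processing notes, without their role, are kallisto 0.46.0 and DESeq2 1.22.2. The genome build and transcript set are not given in the sources used here. A TPM total is fixed, so an abundant transcript lowers all other values in its library. Libraries summed to 992730 to 995900 TPM over the genes listed.

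Genes averaging 1 TPM or more were compared by limma 3.58.1 (R 4.3.3) as log2(TPM + 1) (mean-variance trend, two-sided, Benjamini-Hochberg over all 16588 genes, threshold 0.05). TPM are not counts, so no count model was run. Median-of-ratios factors came from 35565 genes above 0 in all 6 libraries. The scripts were tested on simulated data. Symbols were matched to GENCODE v29 on GRCh38 (50715 by symbol, 1571 more by gene ID), which gave types, positions and lengths.

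The members, lists and tests were chosen with earlier results of these data known. The named genes are ZNF683, protein-coding genes past the threshold, then, among genes apart on both scales whose higher group averaged 5 TPM or more and whose unadjusted p was under 0.05, the 15 highest and 15 lowest log2 changes, the 6 widest TPM differences each way among genes apart on both scales, and in each list the 3 or fewer genes of lowest p. One of the 15 lowest and a few list results are not reported here. Other genes are named for a stated role or after their values were seen. Alternatives were other scalings, pseudocounts, filters and variance settings, a replicate block, and each library left out.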

Additional observations from a re-analysis of the deposited data

How the results depend on the processing

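With limma, 5 genes passed the threshold, 1 of them protein-coding. A pseudocount of 0.1 gave 3 and robust moderation 8, median-of-ratios scaling gave 7, and each of these kept HSPA6. No filter on low values gave 0 (0 protein-coding; 3957 at an unadjusted p under 0.05), and a minimum mean of 5 TPM, which removes HSPA6, gave 0 (0 protein-coding; 1456). Leaving out each library gave 0 to 47 genes and 0 to 36 protein-coding genes. Without the first ZNF683 library there were 36 protein-coding genes, without the third Mock library 2, without the third ZNF683 library 1, and without the second ZNF683, first Mock or second Mock library 0. A fit with the replicate number as a block gave 0 genes and 0 protein-coding genes (1516 at an unadjusted p under 0.05), with an HSPA6 adjusted p of 0.0716. Whether the numbers pair the libraries is not stated in the labels. Deviations from the group means correlated at -0.21, 0.07 and -0.25 for same-numbered libraries and between -0.18 and 0.31 for differently numbered ones. Deviations within a group of 3 libraries sum to 0, so these values cannot decide it. HSPA6 had an adjusted p of 0.105 without the filter, and over 13 alternatives its adjusted p ran from 0.00383 to 0.105, past the threshold in 8. Over 14 alternatives, the log2 change spanned 0 for RAG2 (-0.141 to 0.0498), CD79A (-0.227 to 0.0892), CD3D (-0.231 to 0.0211), RPS2 (-0.0159 to 0.359) and PECAM1 (-0.0120 to 0.149), none of them called. The ZNF683 transcript missed the threshold with a positive log2 change in every alternative that keeps it (a minimum of 5 TPM removes it). The cause of the lost calls was not tested. Depth is unknown, so differences of genes near 1 TPM cannot be given a counting interval.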
